A study of Mus musculus with 20 samples.

Results

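The 41 genes described here encode nucleolar and other ribosome biogenesis proteins that transcribe, modify, cut and assemble ribosomal RNA. They were taken as a listed module, 41 of the 31053 genes in each count matrix, chosen by name and function with no threshold on a measured value. Earlier results of these data were known when the list was made. They fall into 6 role groups, namely 3 subunits of RNA polymerase I, 3 proteins of the box C/D and 4 of the box H/ACA small nucleolar ribonucleoproteins (snoRNPs), 3 abundant nucleolar proteins, 8 factors of the small ribosomal subunit and 20 of the large one. All 41 passed the filter on low counts in every comparison that was tested, and all 41 were detected in B-like cells of every library.

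Single-cell RNA-sequencing (scRNA-seq) counted RNA molecules by their unique molecular identifiers (UMIs) in 20 libraries of live cells that were not sorted by type, taken from 13 mice, C57BL/6N by the labels, although the methods give a C57BL/6 J background for the Eµ-TCL1 mice that were crossed. Eµ-PRMT5 mice (transgene Eµ-hPRMT5, 5 spleens) carried human PRMT5, a methyltransferase that acts on arginines, and Eµ-TCL1 mice (Eµ-hTCL1, 4 spleens and 3 lymph nodes) carried the human oncogene TCL1. Eµ-PRMT5/TCL1 mice (Eµ-hPRMT5/hTCL1, 4 spleens and 4 lymph nodes) carried both, and every mouse was sampled when it met early removal criteria, with no age given for single animals. The immunoglobulin heavy chain enhancer Eµ, with a VH promoter in the PRMT5 construct, drove each transgene in B cells, and there was no group without a transgene. By its number the mouse of Eµ-PRMT5 spleen 3 is one that the methods list as a founder of the Eµ-PRMT5 line. By the median survival in the paper, Eµ-PRMT5 mice lived longest and Eµ-PRMT5/TCL1 mice shortest, so age at sampling may differ between the groups. Genotype, age and the disease each mouse carried at that point cannot be told apart. The mouse label of Eµ-PRMT5/TCL1 spleen 1 and lymph node 2 carries the suffix RT, the paper's abbreviation for Richter's transformation. The sense of the suffix in that label is not known here. The human transgenes were not measured, because the counts are of mouse genes.

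Ribosome production begins in the nucleolus, where RNA polymerase I copies the ribosomal DNA repeats into a long precursor. Guide RNAs held in snoRNPs direct methylation (box C/D) or pseudouridylation (box H/ACA) of this precursor, and large protein assemblies fold and cut it into the RNAs of the small and large subunits. Dividing lymphocytes and many B cell cancers make ribosomes at a high rate, and many of these genes are textbook targets of the transcription factor MYC.

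Promoters of a few members are shown first, so that their letters can be set beside the levels that follow. RefSeq promoters of GRCm38.p6, which run from 250 bases before to 50 after a start, were found for 35 of the 41 members. The E-box letters CACGTG, which read the same on both strands, stood in the promoters of 6 of these 35 (17.1%), against 8.09% of 27025 genes with a promoter. The letters CGGAAG, the core of sites for ETS family factors, stood on either strand in 20 of 35 (57.1%), against 18.8% of all genes, and both were present in 3 members (8.57% against 2.1%). A match is only a run of letters, and no CACGTG overlapped a CGGAAG in the promoters shown. The E-box promoters were those of Wdr43, Utp20, Tsr1, Pes1, Nop2 and Nle1. Below are 4 promoters, each 5′ to 3′ on the gene's strand with the motif letters in capitals: Wdr43 has an E-box alone and Gtpbp4 has CGGAAG alone, both among the members that differed most in B-like cells, and Tsr1 and Nop2 have both.
Wdr43, plus strand, chr17:71615965-71616264: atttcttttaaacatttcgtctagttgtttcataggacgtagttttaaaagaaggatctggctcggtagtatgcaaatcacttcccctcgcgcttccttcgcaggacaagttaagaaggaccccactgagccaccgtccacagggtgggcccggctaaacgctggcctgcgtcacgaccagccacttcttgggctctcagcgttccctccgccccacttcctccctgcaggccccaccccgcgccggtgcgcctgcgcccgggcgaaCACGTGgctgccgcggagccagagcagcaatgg
Gtpbp4, minus strand, chr13:8995963-8996262: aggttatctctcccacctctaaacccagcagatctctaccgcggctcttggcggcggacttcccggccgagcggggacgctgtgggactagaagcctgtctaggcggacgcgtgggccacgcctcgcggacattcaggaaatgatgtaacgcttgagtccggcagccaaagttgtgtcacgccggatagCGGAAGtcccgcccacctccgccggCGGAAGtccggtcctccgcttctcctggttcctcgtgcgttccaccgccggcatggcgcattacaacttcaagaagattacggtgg
Tsr1, plus strand, chr11:74897830-74898129: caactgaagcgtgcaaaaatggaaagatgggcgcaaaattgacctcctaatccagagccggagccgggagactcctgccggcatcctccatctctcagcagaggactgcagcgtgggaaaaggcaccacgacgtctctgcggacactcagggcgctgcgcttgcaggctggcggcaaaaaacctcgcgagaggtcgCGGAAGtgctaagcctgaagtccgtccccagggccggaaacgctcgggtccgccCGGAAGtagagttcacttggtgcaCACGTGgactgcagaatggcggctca
Nop2, plus strand, chr6:125131633-125131932: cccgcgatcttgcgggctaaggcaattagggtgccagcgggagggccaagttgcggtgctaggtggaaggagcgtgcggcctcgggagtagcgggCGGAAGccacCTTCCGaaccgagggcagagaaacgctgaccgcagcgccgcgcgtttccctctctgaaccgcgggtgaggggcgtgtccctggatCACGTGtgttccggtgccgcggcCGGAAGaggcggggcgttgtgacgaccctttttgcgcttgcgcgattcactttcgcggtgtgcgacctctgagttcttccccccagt
With the start site as position 1 and the base before it as -1, the E-box begins at 18 in Wdr43, at 25 in Tsr1 and at -60 in Nop2. Of the 10 members with the largest log2 differences in B-like cells, 9 had a promoter here. CGGAAG stood in 4 of the 9 (Nolc1, Rrp9, Gtpbp4 and Tsr1), CACGTG in 2 (Wdr43 and Tsr1), and neither in 4 (Gnl3, Nop56, Nop58 and Ncl).

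After filtering, 84231 cells were kept, 688 to 7631 per library, with 3553 to 14285 median UMIs per cell. Cells were clustered on variable genes, none of which was a member, and clusters were named from marker lists as B-like (39656 cells), T-like (30679 cells), plasma-like (3902 cells) and myeloid-like (a neutrophil-like cluster of 2915 cells, a granulocyte-monocyte progenitor-like cluster of 1011 cells and a cluster of 2794 cells led by Lyz2, S100a8 and Chil3, genes of monocytes and neutrophils). A cluster of 2485 cells led by T genes that also held B markers was left unnamed and held up to 18.4% of a library (Eµ-PRMT5 spleen 1). Libraries shared 0 to 68 cell barcodes, and chance placement gave 0.87 to 64.62. UMIs were summed per library and class and are given as CPM, in which every class sum is scaled to the same total, and a class was used in a library that held at least 50 of its cells. CPM of one gene is compared between groups, and no level is compared between genes. By Xist and genes of the Y chromosome, 4 of 5 Eµ-PRMT5 spleens but 1 of 4 Eµ-TCL1 spleens came from females, as did 3 of 4 Eµ-PRMT5/TCL1 spleens, 3 of 4 Eµ-PRMT5/TCL1 lymph nodes and 1 of 3 Eµ-TCL1 lymph nodes. In B-like cells the 9 B markers summed to 4719 to 7878 CPM in every spleen library except Eµ-PRMT5 spleen 4, where they summed to 1181 CPM. In that library 76.7% of B-like cells had at least 2 UMIs of the 6 cell cycle genes (95% exact interval 75.0 to 78.3%, counting error only), but its B-like cells were also the deepest, with a median of 18291 UMIs beside 4226.5 to 10507 in the other spleens. Thinned to 2000 UMIs per cell, the share was 39.4%, beside 18.7% in Eµ-TCL1 spleen 1 and 0.364 to 17.2% in the other 11 spleens, and at most 26 shallower cells of a spleen were left out. Summed cell cycle genes were at 823 CPM there and 565 CPM in Eµ-TCL1 spleen 1, while Mki67, one of them, was at 106 and 131 CPM. Of the 2617 cells of Eµ-PRMT5 spleen 4 classed as B-like, 2555 were in 3 clusters whose leading genes held more plasma than B markers (2565 cells in all Eµ-PRMT5 spleens, at most 46 in an Eµ-TCL1 spleen). These clusters are called led by plasma markers below, by that count alone. The largest, of 2661 cells with 96.0% from Eµ-PRMT5 spleen 4, had 1 plasma and 0 B markers among its leading genes. It held 8 of 9 B markers and 3 of 8 plasma markers. Its cells are called B-like by the clustering only, and the values of B-like and myeloid-like spleen comparisons are also given without it.

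The first question was whether B-like cells of Eµ-PRMT5 spleens differed from those of Eµ-TCL1 spleens. Of 15 B-like clusters, 10 drew over 50% of their cells from 1 library (up to 97.1%), so cells of the groups compared sit in part in different clusters. All 41 members had the higher mean in Eµ-PRMT5 B-like cells, with a median log2 difference of 0.70 (0.19 to 1.37) beside 0.02 for all 11998 genes tested. For 26 of the 41, every Eµ-PRMT5 library lay above every Eµ-TCL1 library, which was so for 3.06% of all genes. That count was 1 in cells without a cell cycle UMI and 6 without clusters led by plasma markers, settings that left 444 and 62 cells of Eµ-PRMT5 spleen 4, while all 41 fitted differences stayed above 0. With that library left out as well, the count was 29 in both settings (13.8% and 14.2% of genes). In edgeR's quasi-likelihood test with Benjamini-Hochberg adjustment, 0 of the 41 had an adjusted p under 0.05 (1 gene in the whole table did, 0.00833% of those tested), and the lowest adjusted p of a member was 0.0883. At an unadjusted p under 0.05, 33 of 41 were higher in Eµ-PRMT5, against 10.3% of all genes, and 0 were lower. DESeq2 gave 18 of the 41 an adjusted p under 0.05, all higher, among 765 genes of the table (3.58% of genes higher). Summed over the members, Eµ-PRMT5 B-like cells held 5110 to 6929 CPM and Eµ-TCL1 B-like cells 3184 to 3927 CPM, with no overlap.

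**Figure D1:**
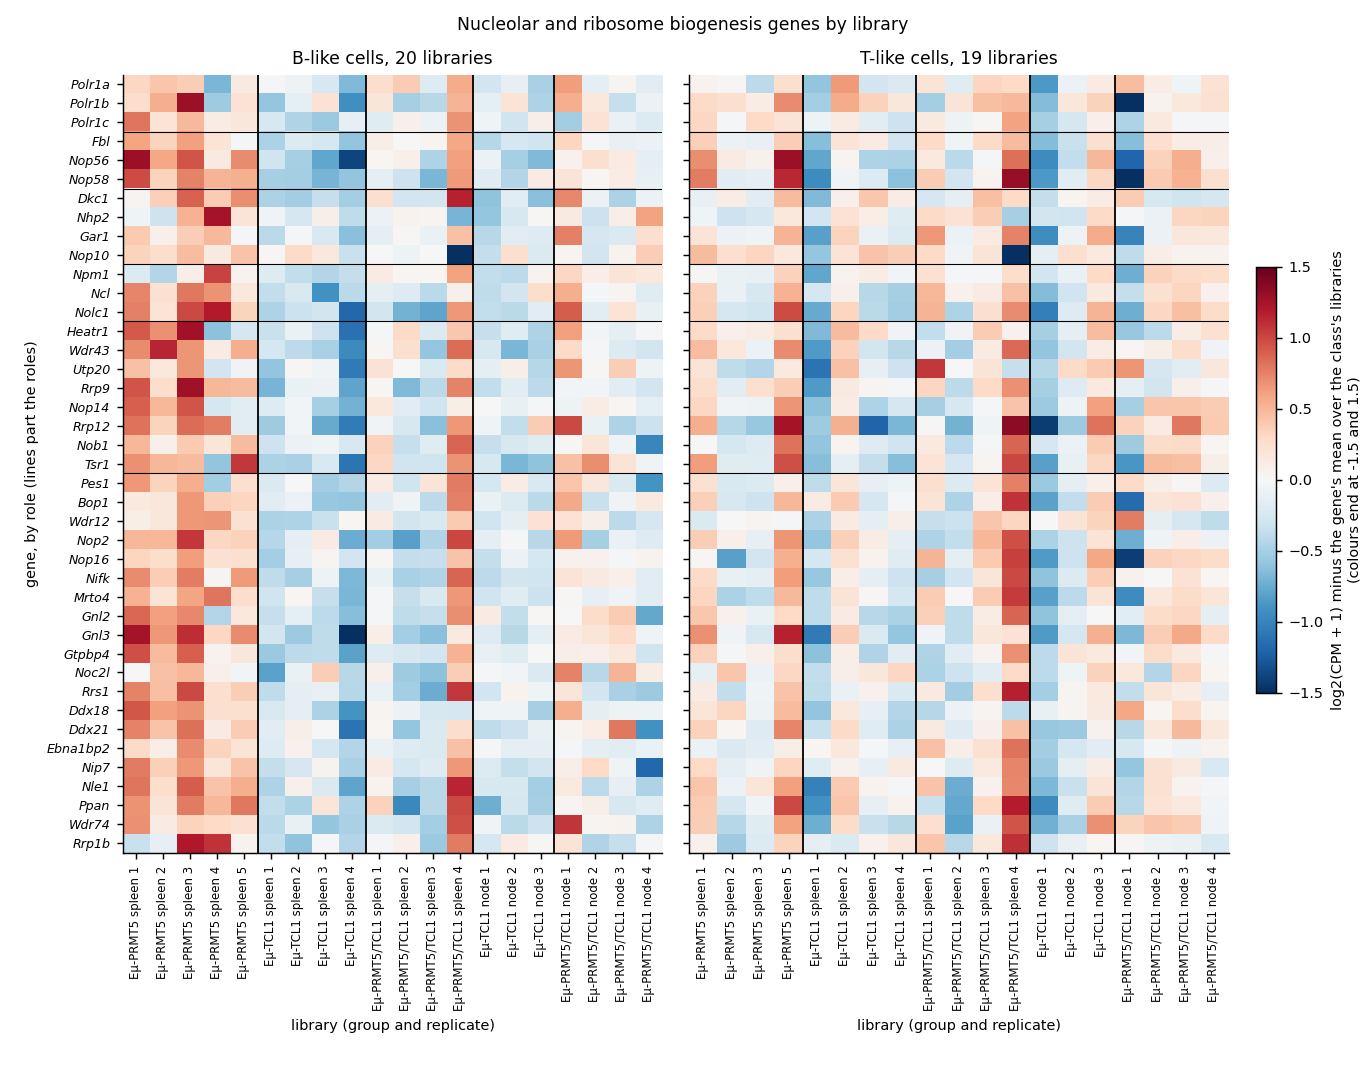
Colours give log2(CPM + 1) of each member (rows, parted by role) minus its mean over the libraries of the class, with libraries as columns by group, for B-like cells (left) and T-like cells (right). In B-like cells, by the library medians of this measure: the 5 Eµ-PRMT5 spleens and Eµ-PRMT5/TCL1 spleen 4 are mostly above the mean, with library medians of 0.24 to 0.70, and the 4 Eµ-TCL1 spleens are mostly below it, with medians of -0.62 to -0.14.

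The box C/D snoRNP, which carries out ribosomal RNA methylation, held the members with the lowest p. Nop56, a scaffold of this particle, measured 237, 145, 188, 107 and 159.9 CPM in Eµ-PRMT5 spleens 1 to 5 and 78.6, 68.3, 56.1 and 36.9 CPM in Eµ-TCL1 spleens 1 to 4. The groups did not overlap, with means of 168 ± 48.8 (SD, n = 5) and 59.98 ± 17.9 CPM (SD, n = 4). The log2 difference of Nop56 was 1.37 (SE 0.253, adjusted p = 0.0883) in edgeR. Its partner scaffold Nop58 measured 293, 187, 248.9, 212 and 215 CPM in Eµ-PRMT5 and 105, 104, 91.3 and 98.3 CPM in Eµ-TCL1 spleens. Every Eµ-PRMT5 value of Nop58 was above every Eµ-TCL1 value, with a log2 difference of 1.13 (SE 0.215, adjusted p = 0.0883) in edgeR. Fbl, the methyltransferase fibrillarin, measured 265, 221, 268, 202 and 171 CPM against 125, 152, 146 and 115 CPM. Its lowest Eµ-PRMT5 library was still above the highest Eµ-TCL1 library, at a smaller log2 difference of 0.65 (SE 0.176, adjusted p = 0.120) in edgeR.

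In the box H/ACA snoRNP, which converts uridines to pseudouridines, the 4 members ran over a wide range. Dkc1, the pseudouridine synthase dyskerin, measured 45.5, 56.9, 82.4, 57.8 and 72.3 CPM in Eµ-PRMT5 and 31.5, 30.5, 34.8 and 30.7 CPM in Eµ-TCL1 spleens, without overlap and with a log2 difference of 0.90 (SE 0.248, adjusted p = 0.120) in edgeR. The core protein Gar1 measured 126, 101, 125, 136 and 94.8 CPM against 72.8, 95.5, 82.2 and 62.2 CPM, where Eµ-PRMT5 spleen 5 lay just under Eµ-TCL1 spleen 2. The edgeR log2 difference of Gar1 was 0.52 (SE 0.211, adjusted p = 0.213). Over the 4 members, log2 differences ran from 0.19 to 0.90, and 2 had an unadjusted p under 0.05 in edgeR.

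RNA polymerase I had 3 subunits among the members. Polr1a, the largest catalytic subunit, measured 31.4, 33.8, 32.5, 15.2 and 27.6 CPM in Eµ-PRMT5 and 24.4, 23.8, 21.02 and 15.5 CPM in Eµ-TCL1 spleens. Eµ-PRMT5 spleen 4 was just under the lowest Eµ-TCL1 library, and the edgeR log2 difference of Polr1a was 0.27 (SE 0.195, adjusted p = 0.474). Polr1b, the second largest subunit, ranged from 6.76 to 26.5 CPM in Eµ-PRMT5 and from 4.95 to 12.1 CPM in Eµ-TCL1 spleens, with overlap. Polr1c, a subunit shared with RNA polymerase III, had no overlap (63.8 to 103 CPM against 39.8 to 53.9 CPM) and a log2 difference of 0.63 (SE 0.183, adjusted p = 0.126) in edgeR.

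Among the abundant nucleolar proteins, Ncl (nucleolin), which binds the ribosomal precursor, measured 862, 611, 905, 830.2 and 579.9 CPM in Eµ-PRMT5 and 402, 445, 276 and 393 CPM in Eµ-TCL1 spleens. All 5 were above all 4, with a log2 difference of 0.93 (SE 0.233, adjusted p = 0.108) in edgeR. Nolc1, a chaperone of snoRNPs, measured 162, 109.8, 190.1, 218 and 120.3 CPM against 69.1, 75.8, 78.4 and 41.6 CPM and had a log2 difference of 1.23 (SE 0.333, adjusted p = 0.120) in edgeR. Npm1 (nucleophosmin), a histone and ribosome chaperone, was high in every library and overlapped between groups, with 1063, 906, 1317, 2475 and 1273 CPM against 1076, 949, 906 and 956 CPM. Its log2 difference was 0.54 (SE 0.352, adjusted p = 0.435) in edgeR, and Eµ-PRMT5 spleen 4 stood above all other libraries.

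Of the 8 small subunit factors, all 8 were higher in the mean and 6 had an unadjusted p under 0.05 in edgeR, with a median log2 difference of 0.91. Wdr43, a component of the early assembly on the nascent precursor, measured 138, 186, 133, 91.3 and 123 CPM in Eµ-PRMT5 and 69.7, 63.3, 59.3 and 42.8 CPM in Eµ-TCL1 spleens. The log2 difference of Wdr43 was 1.07 (SE 0.228, adjusted p = 0.0887) in edgeR, with no overlap. Rrp9, a protein of the U3 particle that guides early cuts, measured 65.8, 40.4, 82.5, 47.9 and 47.1 CPM against 20.3, 31.2, 31.6 and 18.99 CPM, again without overlap, and differed by 1.06 (SE 0.270, adjusted p = 0.110) in edgeR. Tsr1, which acts on late small subunit precursors in the cytoplasm, measured 71.3, 62.4, 61.5, 28.7 and 92.7 CPM against 31.3, 31.1, 37.1 and 19.99 CPM, with Eµ-PRMT5 spleen 4 inside the Eµ-TCL1 range. Heatr1 and Utp20, scaffolds of the early assembly, and Nob1, the nuclease that makes the final cut at the end of the small subunit RNA, differed by 0.86, 0.50 and 0.43 on the log2 scale. Of these 3, Nob1 had no overlap (74.6 to 101 CPM against 56.8 to 67.8 CPM), and in Heatr1 and Utp20 the Eµ-PRMT5 spleens 4 and 5 lay within the Eµ-TCL1 range.

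The large subunit held a member that differed about as much as Nop56. Gnl3 (nucleostemin), a GTP-binding protein, measured 199, 131, 180.1, 104 and 137 CPM in Eµ-PRMT5 spleens and 68.6, 56.9, 63.4 and 24.7 CPM in Eµ-TCL1 spleens. No Eµ-PRMT5 library reached down to the Eµ-TCL1 range, and the log2 difference was 1.37 (SE 0.286, adjusted p = 0.0887) in edgeR. Gtpbp4, another GTP-binding assembly factor, measured 208, 148, 199, 111 and 119.8 CPM against 72.2, 80.6, 81.1 and 60.6 CPM and differed by 0.98 (SE 0.192, adjusted p = 0.0883) in edgeR. Ddx18, an RNA helicase, had values of 118, 94.0, 98.1, 72.2 and 72.5 CPM and 52.0, 55.1, 43.9 and 32.4 CPM, also without overlap. Pes1, Bop1 and Wdr12, which form the PeBoW complex needed to process the precursor of the large subunit, differed by 0.47, 0.62 and 0.65 on the log2 scale. Bop1 and Wdr12 did not overlap between groups, while for Pes1 Eµ-PRMT5 spleen 4 (57.7 CPM) lay inside the Eµ-TCL1 range (57.6 to 83.4 CPM). Ddx21, a helicase that links RNA polymerase I transcription with processing, measured 140 to 229 CPM against 59.1 to 137 CPM and differed by 0.65. All 20 members of this group were higher in the mean, 19 with an unadjusted p under 0.05 in edgeR, and the median log2 difference was 0.73.

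Several measured features were set beside this comparison, and their part in it was not tested. Without Eµ-PRMT5 spleen 4, edgeR gave 9 members an adjusted p under 0.05, among 759 genes of the table (3.99% of genes higher): Nop56, Nop58, Ncl, Wdr43, Tsr1, Gnl2, Gnl3, Gtpbp4 and Ddx18 rose, with log2 changes of 0.78 (Ncl) to 1.42 (Nop56). Without that library all 41 members were higher, the median log2 difference was 0.71, and 31 of 41 members had no overlap, against 14.2% of genes. Cells with at least 2 UMIs of the 6 cell cycle genes made up 0.545 to 2.47% of B-like cells in the other 4 Eµ-PRMT5 spleens and 1.45 to 28.6% in the Eµ-TCL1 spleens. In B-like cells without any cell cycle UMI, 41 of 41 members were higher, the median log2 difference was 0.54, 0 members had an adjusted p under 0.05 in edgeR (20 higher at an unadjusted p under 0.05, against 9.44% of genes), and 1 did not overlap, against 1.17% of genes. Plasma markers in B-like cells summed to 773 to 2196 CPM in Eµ-PRMT5 and 1222 to 4573 CPM in Eµ-TCL1 spleens, and mitochondrial genes took 2.43 to 4.71% and 3.78 to 5.59% of UMIs. Without the 3 B-like clusters led by plasma markers, which left 62 cells of Eµ-PRMT5 spleen 4, the median was 0.60 and 6 members did not overlap (2.21% of genes). With sex as a term in edgeR, 40 of 41 were higher, the median was 0.76 and the lowest adjusted p was 0.284. Simulated counts of this comparison showed what edgeR could find: 10% of genes changed 2-fold and 77% of those changed 4-fold passed the adjusted threshold.

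The second question was what the Eµ-PRMT5/TCL1 genotype showed. In B-like cells of spleens, 38 of 41 members were higher in Eµ-PRMT5/TCL1 than in Eµ-TCL1, with a median log2 difference of 0.27 (all genes -0.01). edgeR gave 0 members an adjusted p under 0.05 (0% of 11998 genes; lowest 0.922, and 0 by DESeq2, against 0.233% of genes), and 4 had an unadjusted p under 0.05 (1.67% of genes higher). Nop56 measured 99.1, 103, 70.3 and 149 CPM in Eµ-PRMT5/TCL1 spleens 1 to 4, a log2 difference of 0.66 (SE 0.259, adjusted p = 0.922) from Eµ-TCL1 in edgeR, with spleen 3 inside the Eµ-TCL1 range. Dkc1, Fbl, Gtpbp4 and Npm1 did not overlap, 4 of 41 members against 2.36% of genes, and Gtpbp4 was named here after its values were seen. Npm1 measured 1332, 1248, 1249.9 and 1862 CPM, above the highest Eµ-TCL1 library at 1076 CPM. Without Eµ-PRMT5/TCL1 spleen 4 the median was 0.16 and 33 of 41 were higher. Without clusters led by plasma markers the median was 0.31, with 38 of 41 higher. With sex as a term it was 0.33, with 36 of 41 higher, and 0 members had an adjusted p under 0.05 in edgeR.

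Set against Eµ-PRMT5 spleens, with which the comparison above shares the Eµ-PRMT5/TCL1 libraries, 40 of 41 members were lower in Eµ-PRMT5/TCL1 B-like cells. The median log2 difference was -0.50 (all genes -0.06). In edgeR 0 had an adjusted p under 0.05 (0% of genes; lowest 0.345) and 18 had an unadjusted p under 0.05, against 5.91% of genes lower. DESeq2 gave 3 members an adjusted p under 0.05, namely Gnl3, Nop58 and Ncl, all lower (0.85% of genes lower). Gnl3 measured 89.5, 58.2, 53.6 and 92.4 CPM in Eµ-PRMT5/TCL1 spleens and was below all 5 Eµ-PRMT5 libraries, at a log2 difference of -1.06 (SE 0.283, adjusted p = 0.345) in edgeR. Ncl measured 474, 456, 393 and 551 CPM and also lay below all 5, with -0.74 (SE 0.232, adjusted p = 0.396) in edgeR. Ddx18 and Nop10, a core H/ACA protein, were the other members without overlap, 4 of 41 against 0.475% of genes, and Nop10 was named after its values were seen. Nop58 measured 134, 120.0, 92.1 and 232 CPM, of which spleen 4 lay inside the Eµ-PRMT5 range. Without Eµ-PRMT5 spleen 4, 39 of 41 members were lower, the median was -0.46, and 0 had an adjusted p under 0.05 in edgeR (lowest 0.118). Without clusters led by plasma markers, which took 2555 cells of Eµ-PRMT5 spleen 4 and 736 of Eµ-PRMT5/TCL1 spleen 4, the median was -0.30, with 38 of 41 lower. In that setting the 18 members with an unadjusted p under 0.05 in edgeR became 6, and the share of all genes is not given for it.

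Eµ-PRMT5/TCL1 spleen 4 stood apart from the other 3 spleens of its group. Its median member deviation in B-like cells was 0.64 on the log2 scale, while those of spleens 1 to 3 were 0.02, -0.28 and -0.30, and it was the highest of all 13 spleens for 10 of 41 members. The same library was high in T-like cells, where its median deviation was 0.72 and it was the highest spleen for 24 members, and in myeloid-like cells, at 0.51. Cell cycle genes were also high there, with sums of 514 CPM in B-like cells (152 to 209 CPM in spleens 1 to 3) and 772 CPM in T-like cells (135 to 425 CPM), as were plasma markers in B-like cells, at 3603 CPM beside 1048 to 1344 CPM. Clusters led by plasma markers held 736 of its 3022 B-like cells and at most 33 in the other 3 spleens of the group. Their part in the member levels was not tested. Nop2, an RNA methyltransferase of the large subunit that was named after its values were seen, measured 22.3, 17.98, 23.5 and 66.2 CPM in these 4 spleens, B-like cells only. Nop10 went the other way in spleen 4, at 94.9 CPM beside 260 to 273 CPM. The lymph node of this mouse, Eµ-PRMT5/TCL1 lymph node 1, had the highest median deviation of the 7 lymph nodes in B-like cells, at 0.21, and the second lowest in its 55 T-like cells, at -0.41.

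In lymph nodes, B-like cells of Eµ-PRMT5/TCL1 mice had the higher mean for 39 of 41 members than those of Eµ-TCL1 mice, with a median log2 difference of 0.36 (all genes 0.02). Every mouse of these nodes also gave a spleen of the same genotype comparison, so the node and spleen comparisons are not independent. edgeR gave 0 an adjusted p under 0.05 (0% of 10965 genes; lowest 0.69) and 9 an unadjusted p under 0.05 (2.78% of genes higher), and DESeq2 gave 1 an adjusted p under 0.05, Tsr1 (0.237% of genes higher). Tsr1 measured 59.6, 72.0, 50.6 and 42.4 CPM in Eµ-PRMT5/TCL1 lymph nodes 1 to 4 and 36.9, 26.9 and 28.5 CPM in Eµ-TCL1 lymph nodes 1 to 3. The groups did not overlap, and the log2 difference of Tsr1 was 0.95 (SE 0.203, adjusted p = 0.690) in edgeR. In all, 10 of 41 members had every Eµ-PRMT5/TCL1 node above every Eµ-TCL1 node (1.88% of genes), among them Fbl, Npm1, Nolc1, Heatr1 and Gnl3. Npm1 measured 1516, 1319.7, 1406 and 1368 CPM against 952, 936 and 1269.7 CPM, and Gnl3 90.9, 94.4, 102 and 79.6 CPM against 72.9, 62.1 and 74.9 CPM. Leaving out 1 library at a time moved the median between 0.25 and 0.44. Clusters led by plasma markers held 1194 of the 2603 B-like cells of Eµ-TCL1 lymph node 3 and at most 39 in an Eµ-PRMT5/TCL1 node, and without these clusters the median was 0.37, with 40 of 41 higher. With sex as a term the median was 0.46, with 40 of 41 higher and 13 with an unadjusted p under 0.05 in edgeR (2.14% of genes higher). Plasma markers in B-like cells summed to 3913, 1385 and 3026 CPM in Eµ-TCL1 and 707, 1480, 1027 and 2549 CPM in Eµ-PRMT5/TCL1 nodes, and their part was not tested.

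Whether the differences were confined to B-like cells was asked in T-like cells of the same libraries. Of 9 T-like clusters, 3 drew over 50% of their cells from 1 library, namely Eµ-PRMT5 spleen 5 (88.8%), Eµ-TCL1 spleen 1 (77.7%) and Eµ-TCL1 spleen 3 (68.4%). Summed B markers in T-like cells were 0.317 to 3.69% of their level in the B-like cells of the same library. Eµ-PRMT5 spleen 4 held 49 T-like cells and was not used, which left 4 Eµ-PRMT5 and 4 Eµ-TCL1 spleens. The unnamed cluster led by T genes was left out of the T-like cells, unevenly between groups. It held 1097 kept cells (6.15%) of Eµ-PRMT5 spleens and 199 (0.965%) of Eµ-TCL1 spleens. Of 41 members, 39 were higher in Eµ-PRMT5 T-like cells, with a median log2 difference of 0.38 (all genes -0.02). In edgeR 0 had an adjusted p under 0.05 (0% of 10427 genes; lowest 0.422, and 0 by DESeq2, against 0.527% of genes), and 9 had an unadjusted p under 0.05 (5.02% of genes higher). Only Nop56 of the 41 had no overlap between the groups, which was so for 3.22% of genes.

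Nop56 measured 159, 107, 102 and 239 CPM in T-like cells of Eµ-PRMT5 spleens 1, 2, 3 and 5 and 56.2, 100.02, 70.3 and 69.9 CPM in those of Eµ-TCL1 spleens 1 to 4. Its log2 difference in T-like cells was 1.11 (SE 0.319, adjusted p = 0.422) in edgeR, beside 1.37 in B-like cells, or 1.42 in B-like cells without Eµ-PRMT5 spleen 4. Nop58 measured 134, 69.8, 70.4 and 173 CPM against 40.2, 75.4, 67.6 and 50.7 CPM, where Eµ-PRMT5 spleens 2 and 3 lay inside the Eµ-TCL1 range, and differed by 1.02 (SE 0.369, adjusted p = 0.4658) in edgeR. With sex as a term, edgeR gave these 2 members an adjusted p under 0.05 in T-like cells (0.0327 for Nop56 and 0.04999 for Nop58), as for 36 of 10427 genes (0.259% of genes higher). Gnl3 measured 63.4, 37.5, 32.9 and 88.4 CPM against 18.2, 50.7, 33.3 and 25.7 CPM, with overlap. Fbl (194, 142, 139.5 and 196 CPM against 96.8, 175, 164 and 124 CPM), Dkc1 (29.7, 34.7, 28.7 and 45.2 CPM against 19.9, 33.9, 42.7 and 34.7 CPM) and Npm1 (1397, 1295, 1281 and 1752 CPM against 803, 1435, 1496 and 1348 CPM) also overlapped. Leaving out 1 library at a time put the T-like median between 0.15 (Eµ-PRMT5 spleen 5 left out, 0.20 for Eµ-TCL1 spleen 1) and 0.50, with 31 to 41 members higher.

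**Figure D2:**
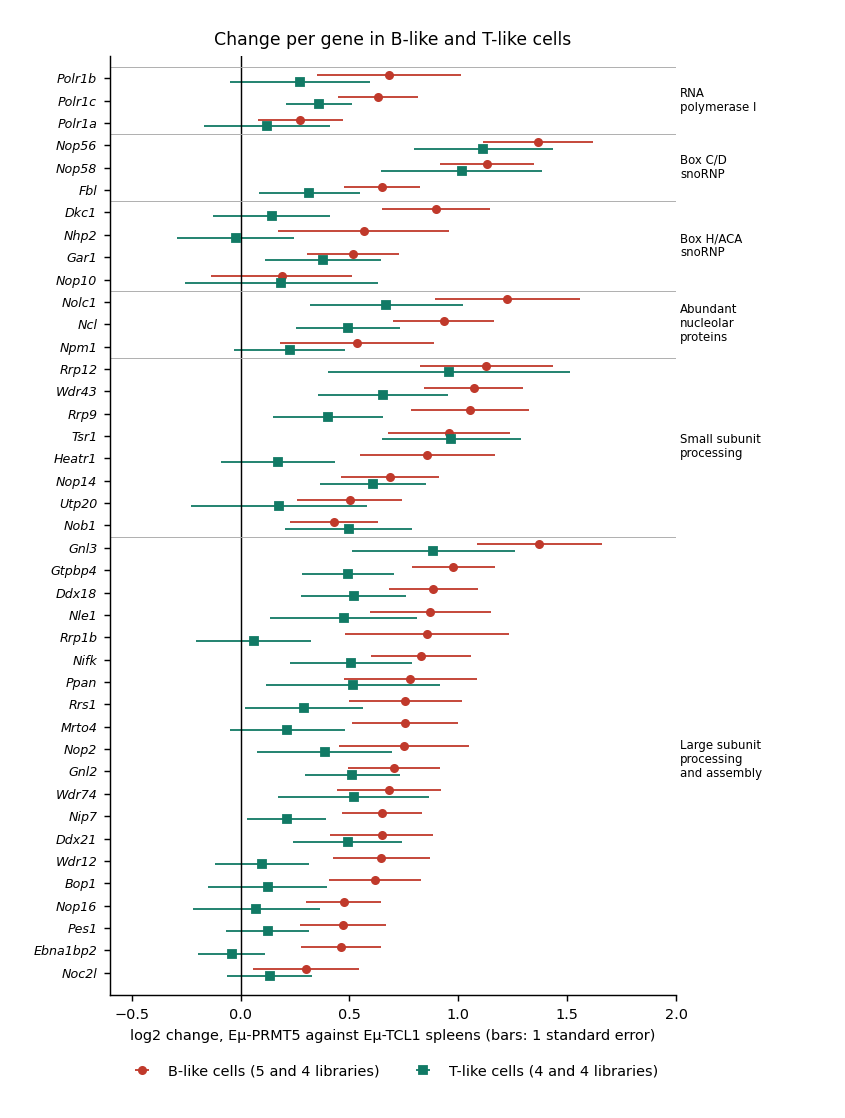
Log2 difference (x axis) of each member (rows, by role), Eµ-PRMT5 minus Eµ-TCL1, spleens only, in B-like cells (circles) and T-like cells (squares). Bars give 1 standard error, worked out from the edgeR F statistic. Circles rest on 5 Eµ-PRMT5 and 4 Eµ-TCL1 spleens, and squares on 4 and 4, without Eµ-PRMT5 spleen 4. In B-like cells all 41 circles are above 0, in T-like cells 39 of 41 squares are, and the bars of the 2 classes overlap for many members.

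The difference between the B-like and T-like differences was tested itself, in a fit over both classes with the library as a block. Eµ-PRMT5 spleen 4, with too few T-like cells, was not in that fit. For Eµ-PRMT5 against Eµ-TCL1 spleens it was above 0 in 37 of 41 members, with a median of 0.33 and a median standard error of 0.28 for a single member. edgeR gave 0 members an adjusted p under 0.05 (0.0166% of 12037 genes; lowest 0.391, and 0 by limma voom), and 2 had an unadjusted p under 0.05 (5.34% of genes higher). These were Ebna1bp2, an assembly factor of the large subunit, with 0.39 (SE 0.168, adjusted p = 0.391), and Pes1, with 0.43 (SE 0.190, adjusted p = 0.404) in edgeR. Pes1 measured 66.2, 48.0, 48.9 and 59.4 CPM in Eµ-PRMT5 and 43.0, 64.2, 51.7 and 53.6 CPM in Eµ-TCL1 T-like cells. Leaving out 1 library at a time moved the median difference between 0.15 (Eµ-PRMT5 spleen 3 left out, 0.19 for Eµ-TCL1 spleen 2) and 0.54 (Eµ-PRMT5 spleen 5).

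The other genotype comparisons were tested the same way. In spleens of the Eµ-PRMT5/TCL1 group, 36 of 41 members were higher in T-like cells than in the Eµ-TCL1 group (median 0.24), 0 with an adjusted p (0% of genes) and 0 with an unadjusted p under 0.05 in edgeR (4.48% of genes higher), and the B-like difference exceeded the T-like one for 22 of 41, or 17 to 31 without single libraries (0.00831% of 12037 genes with an adjusted p under 0.05). That T-like median was 0.09 (28 of 41 higher) when Eµ-TCL1 spleen 1 was left out, 0.36 for Eµ-TCL1 spleen 2 and 0.12 for Eµ-PRMT5/TCL1 spleen 4. For lymph nodes, 40 of 41 were higher in T-like cells (median 0.36), again 0 with an adjusted p (0% of 10382 genes) and 0 with an unadjusted p under 0.05 in edgeR (5.08% of genes higher), and the B-like difference exceeded the T-like one for 18 of 41, or 6 (Eµ-TCL1 lymph node 3 left out) to 29 (Eµ-TCL1 lymph node 1 left out). That node median was 0.12 to 0.73 without single libraries, the highest without Eµ-TCL1 lymph node 3. Eµ-PRMT5/TCL1 lymph node 1 held 55 T-like cells with 331842 UMIs, where 0 counts allow up to 9.04 CPM, and Polr1b was at 0 there. For Eµ-PRMT5/TCL1 against Eµ-PRMT5 spleens, 32 of 41 were lower in T-like cells (median -0.19), 0 with an adjusted p (0% of genes) and 2, Noc2l and Ddx18, with an unadjusted p under 0.05 in edgeR, both lower (6.22% of genes lower). For the same groups the difference between classes had 5 members with an unadjusted p under 0.05 in edgeR. In all 5 the change between genotypes was more negative in B-like than in T-like cells (4.52% of genes), led by Ebna1bp2 at -0.58 (SE 0.169, adjusted p = 0.314) in edgeR. Without Eµ-PRMT5 spleen 5 this T-like median was 0.09, with 28 of 41 higher. By DESeq2, 0 members passed the adjusted threshold in these 3 T-like comparisons, against 0.0863% (Eµ-PRMT5/TCL1 against Eµ-TCL1 spleens), 0.819% (lymph nodes) and 1.08% of genes. With sex as a term the first of these T-like medians was 0.54, with 39 of 41 higher and 20 with an unadjusted p under 0.05 in edgeR (6.6% of genes higher), and the lowest adjusted p was 0.371. In all 3 of these differences between the classes edgeR gave 0 members an adjusted p under 0.05.

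Myeloid-like cells of spleens were compared next. Of 41 members, 35 were higher in Eµ-PRMT5 than in Eµ-TCL1 (median 0.24), with 0 of 41 at an adjusted p under 0.05 in edgeR (0% of 10142 genes) and 4 unadjusted (2.14% of genes higher), namely Gnl3, Nolc1, Nop58 and Tsr1. Gnl3 measured 29.9, 23.7, 6.59, 40.8 and 63.9 CPM in myeloid-like cells of Eµ-PRMT5 spleens and 16.97, 16.9, 12.2 and 18.8 CPM in those of Eµ-TCL1 spleens, where Eµ-PRMT5 spleen 3 was the lowest of the 9. No member was without overlap (0.414% of genes). Neutrophil markers in myeloid-like cells summed to 20152 to 215845 CPM in Eµ-PRMT5, 83822 to 166034 CPM in Eµ-TCL1 and 51054 to 120087 CPM in Eµ-PRMT5/TCL1 spleens. Eµ-PRMT5 spleen 3 had the highest marker sum and the lowest median member deviation (-0.74), and Eµ-PRMT5 spleen 5 the lowest sum and the highest deviation (0.68), and the part of the cell mix was not tested. With Eµ-PRMT5/TCL1 set against Eµ-TCL1, 34 of 41 were higher (median 0.33), and 11 had no overlap, against 3.13% of genes, among them Nop56, Nop58, Npm1, Dkc1, Ncl and Nolc1. Npm1 measured 769.7, 1029, 878 and 793 CPM in Eµ-PRMT5/TCL1 and 685, 624, 651 and 643 CPM in Eµ-TCL1 myeloid-like cells. edgeR gave 0 an adjusted p and 0 an unadjusted p under 0.05 (0.887% of genes higher), and without the 2 progenitor-led clusters of a second clustering the median was 0.13. Against Eµ-PRMT5 spleens, 20 of 41 were higher in Eµ-PRMT5/TCL1 (median -0.01), with 0 of 41 at an unadjusted p under 0.05 in edgeR (2.04% of genes higher). B markers in myeloid-like cells reached 0.661 to 13.4% of their level in B-like cells. DESeq2 gave 0 members an adjusted p under 0.05 in the 3 myeloid-like comparisons, as for 0.0296% of genes in Eµ-PRMT5 against Eµ-TCL1 and 0% in the other two. Leaving out single libraries put the Eµ-PRMT5 against Eµ-TCL1 median between 0.16 (Eµ-PRMT5 spleen 5) and 0.42 (Eµ-PRMT5 spleen 3), with 30 to 41 members higher. Without Eµ-PRMT5 spleen 4 the median was 0.19 for Eµ-PRMT5 against Eµ-TCL1 and 0.11 for Eµ-PRMT5/TCL1 against Eµ-PRMT5 myeloid-like cells, with 0 members at an adjusted p under 0.05 in edgeR.

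Plasma-like cells could be given as values only, since no comparison had 3 libraries with at least 50 cells on both sides. Npm1 measured 257 and 313 CPM in Eµ-PRMT5 spleens 1 and 3 and 540.5 and 372 CPM in Eµ-TCL1 spleens 1 and 4. Npm1 in Eµ-TCL1 lymph nodes 1 to 3 was at 549, 500.2 and 405 CPM. Eµ-PRMT5/TCL1 spleens 1 and 4 were at 457 and 421 CPM and lymph nodes 2 and 4 at 380.5 and 512 CPM. Immunoglobulin genes took 51.5 and 52.2% of the UMIs in plasma-like cells of the Eµ-PRMT5 spleens, 20.03 and 30.9% in the Eµ-TCL1 spleens and 16.97 to 41.8% in the other 7 libraries. Over the remaining UMIs, Npm1 was at 531 and 656 CPM in the Eµ-PRMT5 spleens and 676 and 539 CPM in the Eµ-TCL1 spleens, so these 2 genotypes overlapped on that scale, which was chosen after seeing the data. Gnl3 on that scale was at 183 and 94.2 CPM against 51.6 and 58.2 CPM. Nop56 on that scale was at 87.0 and 55.3 CPM in the Eµ-PRMT5 spleens and at 35.6 and 18.9 CPM in the Eµ-TCL1 spleens. Each value was below that of B-like cells of the same library on the same scale. Over all UMIs Nop56 was at 42.2 and 26.4 CPM against 28.5 and 13.1 CPM, so these genotypes overlapped there. Gnl3 over all UMIs was at 88.7 and 45.0 CPM against 41.2 and 40.2 CPM, without overlap. B markers stood at 21.2 to 79.1% of their B-like level in plasma-like cells.

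**Figure D3:**
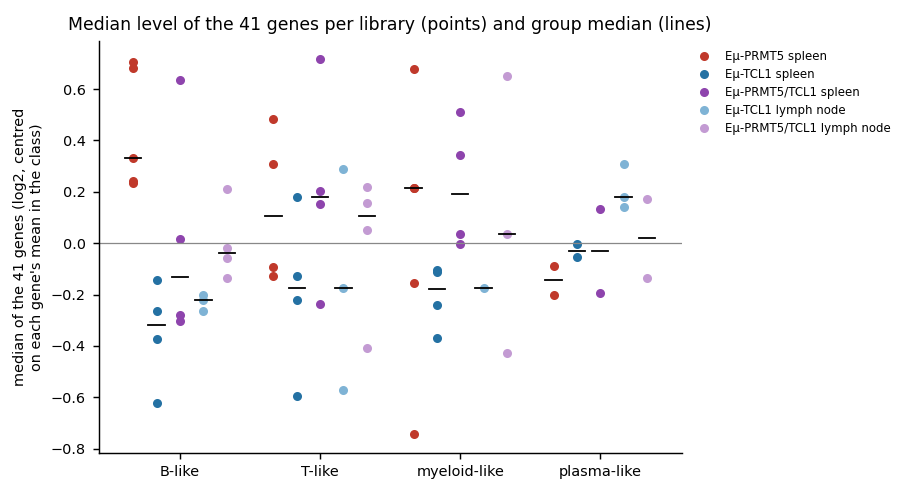
Median over the 41 members of the log2 deviation from each member's mean, 1 point per library, by group and cell class, with lines at group medians. In B-like cells the 5 Eµ-PRMT5 spleens (0.24 to 0.70) lie above the 4 Eµ-TCL1 spleens (-0.62 to -0.14), in T-like cells these groups overlap, and Eµ-PRMT5/TCL1 spleen 4 is high in B-like (0.64), T-like (0.72) and myeloid-like (0.51) cells.

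Levels of a member were also set side by side between cell classes of the same library. Tsr1 had a median of 39.8 CPM over libraries in B-like cells and 16.1 CPM in T-like cells, and it was higher in B-like cells in 19 of 19 libraries. Nop58 (145 and 75.4 CPM), Gar1 (92.5 and 41.1 CPM) and Wdr12 (35.6 and 19.1 CPM) were likewise higher in B-like cells in all 19 libraries, as were Nhp2, Nop16, Mrto4 and Ppan, which were named after their values were seen. Npm1 went the other way, with medians of 1260 CPM in B-like and 1397 CPM in T-like cells and the higher value in B-like cells in 4 of 19 libraries. Fbl, Nop56 and Ncl did not keep 1 direction, with B-like cells higher in 11, 7 and 13 of 19 libraries. The T-like level of Nop56 was 41.6 to 225% of the B-like level of the same library, at 54.0% in Eµ-PRMT5 spleen 3 and 190% in Eµ-TCL1 spleen 4. In the 17 libraries with enough myeloid-like cells, 31 of 41 members were lower there than in B-like cells of the same library in all 17. In the 11 libraries with enough plasma-like cells, 38 were lower in all 11, and 21 when immunoglobulin UMIs were left out of the totals. Polr1a was lower than in B-like cells in 17 of 17 and 11 of 11 libraries. Neutrophil markers summed to 20152 to 234816 CPM in these myeloid-like sums, which lowers the CPM of every other gene there, and no allowance was made for it. The shares of all genes for these counts between classes are not given, so the counts are a description and no trait of these genes.

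**Figure D4:**
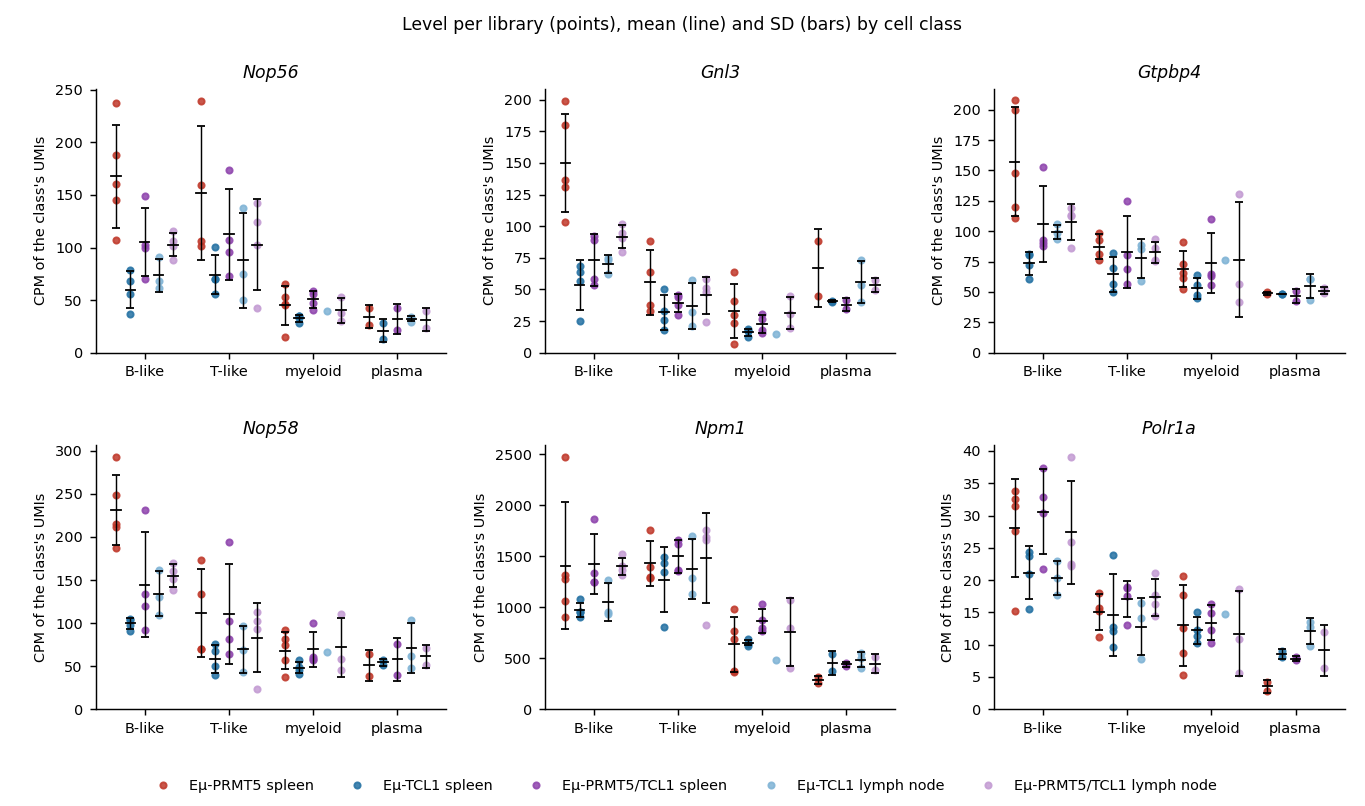
CPM of Nop56, Gnl3, Gtpbp4, Nop58, Npm1 and Polr1a in B-like, T-like, myeloid-like and plasma-like cells, 1 point per library by group, with the mean (line) and SD (bars). In B-like cells the Eµ-PRMT5 points of Nop56, Gnl3, Gtpbp4 and Nop58 are all above the Eµ-TCL1 spleen points, and Npm1 reaches 2475 CPM in Eµ-PRMT5 spleen 4.

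The tissues were compared within the 7 mice that gave both. In B-like cells 29 of 41 members were higher in lymph node than in spleen of the same mouse, with a median log2 difference of 0.11 (all genes 0.01). edgeR with the mouse as a block gave 0 members an adjusted p under 0.05 (0.0437% of 11432 genes, 0.035% higher and 0.00875% lower; 0 by DESeq2, against 2.45% of genes) and 2 an unadjusted p under 0.05 (5.81% of genes higher), Nolc1 at 0.45 (SE 0.178, adjusted p = 0.391) and Gnl3 at 0.47 (SE 0.208, adjusted p = 0.436). In T-like cells 29 of 41 were higher in lymph node (median 0.10), with 0 at an adjusted p under 0.05 in edgeR (0.00994% of 10062 genes; 0 by DESeq2, against 1.62% of genes) and 1 unadjusted (6.58% of genes higher), Ddx18 at 0.52 (SE 0.155, adjusted p = 0.254). Without single mice the B-like median was 0.04 (24 of 41 higher, without the mouse of Eµ-TCL1 spleen 4) to 0.16 and the T-like median -0.01 (again without that mouse) to 0.26 (without the mouse of Eµ-TCL1 spleen 2).

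Members were also compared between B-like cells with at least 2 UMIs of the 6 cell cycle genes and B-like cells with none, within each of 15 libraries that held at least 50 such cells. In Eµ-PRMT5 spleen 4 all 41 members were higher in cycling cells, with a median log2 difference of 1.10. In the other 14 libraries the medians ran from -0.44 to 0.37, and 1 member, Npm1, was higher in cycling cells in all 15. These values are given as a description. Among the 9 spleens of the first comparison, the shares of cycling B-like cells were 1.09, 1.73, 0.545, 76.7 and 2.47% in Eµ-PRMT5 spleens 1 to 5 and 28.6, 1.45, 3.88 and 7.14% in Eµ-TCL1 spleens 1 to 4, and these groups overlapped. Thinned to 2000 UMIs per cell they were 0.654, 0.692, 0.364, 39.4 and 1.52% and 18.7, 0.504, 1.798 and 3.42%, again with overlap.

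**Figure D5:**
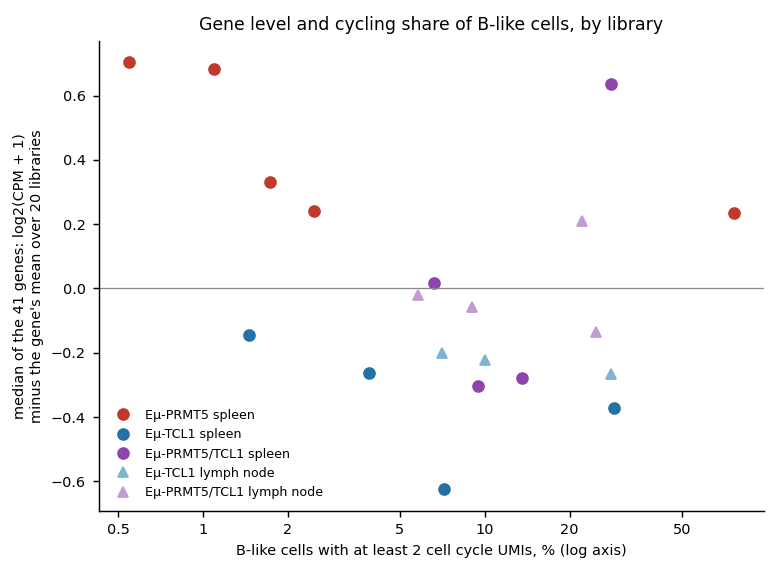
Median member deviation in B-like cells (y axis, log2) against the share of B-like cells with at least 2 cell cycle UMIs (x axis, percent, log axis), 1 point per library. The 4 Eµ-PRMT5 spleens with 0.545 to 2.47% cycling cells lie at 0.24 to 0.70, and Eµ-PRMT5 spleen 4, at 76.7%, lies at 0.24.

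The other genes of ribosome biogenesis, 112 further genes from a list of RNA polymerase I and its factors, subunit assembly factors, snoRNP assembly and the RNA exosome, were counted in the same fits. That list too was made with earlier results of these data known. In B-like cells 100 of 112 were higher in Eµ-PRMT5 than in Eµ-TCL1 spleens, with a median log2 difference of 0.54, 0 at an adjusted p under 0.05 in edgeR (32 higher by DESeq2, against 3.58% of genes) and 61 higher at an unadjusted p under 0.05 (10.3% of genes). By list, the medians were 0.61 for 39 small subunit genes, 0.55 for 12 RNA polymerase I genes, 0.54 for 41 large subunit genes, 0.50 for 9 snoRNP assembly genes and 0.29 for 11 exosome genes. In T-like cells 91 of 112 were higher, with a median of 0.25, and the exosome genes had the lowest median, at 0.06.

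Genes of the module lie on 17 chromosomes. Annotated small nucleolar RNA (snoRNA) genes lie inside 8 of the 41 members, among them Nop56 (chr2:130274430-130279313, plus strand, 5 snoRNA genes), Nop58 (chr1:59684971-59719044, plus strand, 4), Ncl (chr1:86344719-86359400, minus strand, 3) and Gnl3 (chr14:31012433-31019152, minus strand, 3), with positions on GRCm38. Reads of the 3′ libraries come mostly from the ends of polyadenylated RNA, and the snoRNAs themselves were not measured.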

How the data were processed

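The authors aligned 10x 3′ single-cell libraries to GRCm38 and deposited UMI counts per gene and barcode as raw matrices, with Cell Ranger 2.0.1 and Seurat 2.2.1 in the submitters' processing notes and software version 3.1.0 in the matrix headers. From these counts, a barcode was kept as a cell when its UMIs reached the 99th percentile of the top 3000 barcodes divided by 10, with no fewer than 200 genes detected and no more than 10% of its UMIs mitochondrial, and the cells with the highest Scrublet doublet scores were removed up to an expected share that grew with the number of cells, because Scrublet's own threshold marked almost none in most libraries. Cells were normalised and clustered (scanpy 1.11.5, leidenalg 0.10.2, resolution 1) over all libraries. A cluster was named from marker lists. The naming rule, and the choice to leave 354 clonal immunoglobulin, T cell receptor and sex genes out of the variable genes, were set after clusters were seen and before groups were compared.

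UMIs were summed per library and class of at least 50 cells, and p-values measure the spread between these libraries, 1 mouse each. In class sums fewer cells of a type within a class and less RNA per cell cannot be told apart. The test was edgeR 4.0.16 (quasi-likelihood, TMM, filter on low counts, two-sided, Benjamini-Hochberg adjustment over all genes of the table) in R 4.3.3, with all spleens in 1 fit and lymph nodes in another, the library as a block between classes, and the mouse as a block between tissues. DESeq2 1.42.0 or limma 3.58.1 (voom, between classes) was the other tool. Each SE given for edgeR is the absolute log2 difference divided by the square root of the test's F statistic. On simulated data for B-like Eµ-PRMT5 against Eµ-TCL1 spleens (11885 genes, 200 changed), edgeR recovered 10% of genes changed 2-fold and 77% of those changed 4-fold, with 1 false call of 88. B-like sums held 2722219 to 49584739 UMIs, T-like sums 331842 to 25202323. Intervals and limits for a count of 0 (3 counts) cover counting error only.

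The members and the lists were chosen with earlier results of these data known. In the first comparison the 24 members with the smallest p could be named, in each other comparison the 6 smallest, and a fixed set of role examples everywhere. Replicate numbers did not pair the samples (correlations of same-numbered deviations from -0.08 to 0.22). Plasma-like cells, and myeloid-like cells of lymph nodes, had too few libraries to test. Thinning of cells to 2000 UMIs for shares of cycling cells was added after seeing the data.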

Additional observations from a re-analysis of the deposited data

Results flagged for a closer look

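In groups of 4 or 5 libraries of B-like or T-like cells, 328 in all, the level of 1 library stood far from the others in 25. Chance gives about 1 in 20 for a single group. Members of 1 library share its cells, so these counts are a description only. Of the 25, 12 came from Eµ-PRMT5/TCL1 lymph node 1 and 7 from Eµ-PRMT5/TCL1 spleen 4, which are from the same mouse. No cause was tested.

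In B-like cells of Eµ-PRMT5/TCL1 spleen 4, Fbl (262 CPM), Npm1 (1862 CPM), Nop2 (66.2 CPM), Gtpbp4 (153 CPM), Ebna1bp2 (143 CPM) and Wdr74 (66.5 CPM) were far above the other 3 spleens of the group, and Nop10 (94.9 CPM) was far below them. In Eµ-PRMT5 spleens, Npm1 was high in spleen 4 (2475 CPM), and Nop2 (68.9 CPM) and Nop16 (119 CPM) were high in spleen 3. Ppan was high in Eµ-TCL1 spleen 3 (109 CPM).

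In B-like cells of Eµ-PRMT5/TCL1 lymph node 1, Heatr1 (38.4 CPM), Rrp12 (29.5 CPM) and Ddx18 (89.4 CPM) were above the other nodes of that group. In Eµ-PRMT5/TCL1 lymph node 3, Nop16 (75.3 CPM) was below the other nodes of that group (nearest 79.8 CPM), though above every Eµ-TCL1 node. T-like cells of lymph node 1, of which there were 55, were high in Dkc1 (42.2 CPM) and Wdr12 (33.1 CPM). They were low in Polr1b (0 CPM, where 0 counts allow up to 9.04 CPM), Nop10 (154 CPM), Npm1 (829 CPM), Nop14 (39.2 CPM), Bop1 (15.1 CPM), Nop16 (12.1 CPM) and Mrto4 (24.1 CPM). Gnl2 was high in T-like cells of Eµ-TCL1 spleen 2 (51.2 CPM).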

How the results depend on the processing

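In B-like cells, DESeq2 gave 18 members an adjusted p under 0.05 for Eµ-PRMT5 against Eµ-TCL1 spleens (765 genes), 3 for Eµ-PRMT5/TCL1 against Eµ-PRMT5 spleens (146 genes) and 1 for lymph nodes (70 genes), where edgeR gave 0 in each. Without single libraries the first of these edgeR counts ran from 0 to 9 members, 9 without Eµ-PRMT5 spleen 4 (759 genes) and 1 without Eµ-PRMT5 spleen 5 (50 genes). Without clusters led by plasma markers 35 genes and 0 members passed. In alternatives chosen after seeing the data, the 26 members without overlap in that comparison became 1 in cells without a cell cycle UMI and 6 without clusters led by plasma markers, and 29 in each with Eµ-PRMT5 spleen 4 left out as well. With sex as a term, 2 members passed in T-like cells of Eµ-PRMT5 against Eµ-TCL1 spleens (0.259% of genes higher). Replicate numbers did not pair the samples (correlations -0.08 to 0.22), and a fit with the replicate number as a block gave 2 members (Nhp2 and Nop16, higher; 4.35% of genes were called higher) in T-like cells of Eµ-PRMT5/TCL1 against Eµ-PRMT5 spleens and 0 in the first comparison. Median log2 differences without single libraries ran from 0.25 to 0.44 in B-like and from 0.12 to 0.73 in T-like cells of lymph nodes. Without progenitor-led clusters the myeloid-like median of Eµ-PRMT5/TCL1 against Eµ-TCL1 spleens was 0.13, and the difference of Gar1, myeloid-like cells, Eµ-PRMT5/TCL1 against Eµ-PRMT5 spleens, was -0.0024 on the log2 scale, the opposite sign. Shallow class sums, 331842 UMIs at the lowest in T-like cells, limit what single members can show.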
